A study of Mus musculus with 3 samples.

Results

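The cells described here were 142 of the 2793 cells kept from a library of mouse sciatic nerve macrophages taken 1 day after nerve crush. They were chosen by 3 genes found in a larger share of the cells of uninjured nerve than of the day 1 cells. The genes were Mgl2, a galactose-type lectin, Lyve1, a hyaluronan receptor, and Cd81, a tetraspanin. A cell was a member when it had at least 200 detected genes, at most 10% mitochondrial counts and 3 or more UMIs (unique molecular identifiers, which tell captured RNA molecules apart) summed over those 3 genes. The members made up 5.08% of the day 1 cells (exact Clopper-Pearson 95% interval 4.30 to 5.97) and are called resident-like because of these markers. Their levels of Mgl2, Lyve1 and Cd81 were fixed by the choice and are given as a description. In uninjured nerve, Mgl2 had a UMI in 80.9% of the kept cells, Cd81 in 86.5% and Lyve1 in only 22.7%. At day 1 these shares were 5.48%, 7.77% and 3.01%. In all 3 libraries together 5580 cells were kept.

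The data were 3 single-cell libraries of C57BL/6 mice, an inbred strain, made from sciatic nerve: uninjured nerve (steady state), nerve 1 day after crush and nerve 5 days after crush. Crush cuts the axons and leaves the nerve sheath in place. The sort that gave the cells and the number of mice behind a library were not given in the sources used here. These members were compared with 2485 day 1 cells that had no UMI of the 3 genes and with 620 steady-state cells that met the same rule.

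Peripheral nerve holds resident macrophages inside the fascicles (endoneurial) and in the surrounding sheath (epineurial), which take up debris and present antigen. After injury, blood monocytes enter in large numbers and become macrophages that clear myelin and axon debris, so that resident and recruited cells are present together. Arg1, Spp1 and Fn1 are commonly high in recruited macrophages of injured tissue, and Ly6c2, Plac8 and Chil3 are genes of inflammatory monocytes.

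Each time point had 1 library, so time and library cannot be told apart, no test between them was possible, and all intervals below cover counting error only. The kept cells had medians of 2238.5, 2555 and 2473 UMIs at steady state, day 1 and day 5. Members were somewhat deeper, with a median of 3018 UMIs against 2496 in the day 1 cells without the 3 genes and 2332.5 in the steady-state members. The libraries of steady state and day 1 shared 2 cell barcodes, and no member's barcode was among the steady-state barcodes. A doublet caller marked 8 of 5580 cells (0.143%), too few to have worked, so doublets remain in the groups. No member was marked, and 7 members were among the 2% of day 1 cells with most UMIs.

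The share of cells that met the rule was 85.2% at steady state (620 of 728), 5.08% at day 1 and 12.8% at day 5 (264 of 2059). With every cell thinned to 2000 UMIs the shares were 89.8% (414 of 461), 5.02% (86 of 1713) and 9.65% (116 of 1202). By depth within day 1, from the shallowest to the deepest of 4 classes of about 698 cells, 2.29%, 5.01%, 7.31% and 5.72% were members. A share does not tell fewer resident cells from many added cells.

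Among the members, Cd81 had a UMI in 117 cells, Mgl2 in 100 and Lyve1 in 64. The summed UMIs of the 3 genes had a median of 6 and ran from 3 to 38, against a median of 9 in the steady-state members. Mgl2 with Cd81 was the most frequent combination in both groups, in 33.8% of the day 1 members and 62.1% of the steady-state members. Lyve1 without Mgl2 was found in 24 of 142 day 1 members and 17 of 620 steady-state members. All 3 genes were found in 34 day 1 members.

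**Figure D1:**
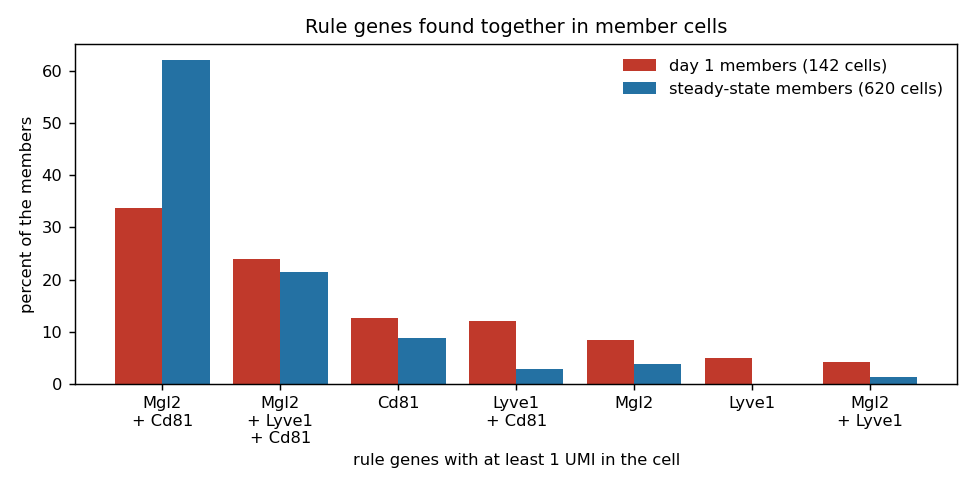
Percent of the members (y axis) with each combination of the 3 rule genes (x axis), for 142 day 1 members (red) and 620 steady-state members (blue). Mgl2 with Cd81 makes up 33.8% of the day 1 and 62.1% of the steady-state members.

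The cells just inside and just outside the threshold are described here. The 28 cells with a sum of 3 had 1873 CPM (a gene's UMIs per 1000000 UMIs, both summed over the cells of a group) of Ccl12, a monocyte-attracting chemokine, and 735 CPM of Arg1, an arginase. The 47 cells with a sum of 2 had 1334 CPM of Ccl12 and 2004 CPM of Arg1. Over the whole range, Ccl12 ran from 487 CPM in cells with a sum of 0 to 5057 CPM in cells with a sum of 7 or more, in steps that all went up. Arg1 was 4809 CPM at a sum of 0 and 542 CPM at 7 or more, with 1172 CPM at 4 to 6, above its level at 3. Cd74, the invariant chain of MHC class II, had 11641 CPM at a sum of 2 and 4579 CPM at 3. Retnla had 397 CPM at a sum of 2, 1114 CPM at 3, 1361 CPM at 4 to 6 and 318 CPM at 7 or more.

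General macrophage markers were found in the members, at levels that do not by themselves tell their cell type. At a depth of 2000 UMIs, the lysosomal gene Cd68 had a UMI in 75.9% of members, 73.7% of the day 1 cells without the 3 genes and 77.6% of steady-state members. The growth factor receptor gene Csf1r had 304 CPM in members, 231 CPM in the day 1 cells without the 3 genes and 775 CPM in steady-state members. Adgre1, which encodes the macrophage antigen F4/80, had 131, 116 and 411 CPM in the same order. Cd68 was thus at a like level in all 3 groups, and Csf1r and Adgre1 were closer to the other day 1 cells than to steady state.

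Pericyte, endothelial, lymphocyte, mast cell and neutrophil markers were low in the members. The fibroblast, dendritic cell and Schwann cell lists summed to more than in the day 1 cells without the 3 genes. The pericyte list (6 genes) was at 0 throughout, 8 of 10 endothelial genes were at 0, and the lymphocyte and mast cell list summed to 21.4 CPM with 9 of 12 genes at 0. Neutrophil markers summed to 64.3 CPM in members (6 of 9 genes at 0), 109 CPM in the day 1 cells without the 3 genes and 127 CPM in steady-state members. Fibroblast markers summed to 572, 328 and 119 CPM in that order, and 199 of the 267 UMIs in members came from 1 cell. Dendritic cell markers summed to 446, 273 and 467 CPM, with 10 of 18 genes at 0 in members. Schwann cell markers summed to 199, 54.2 and 332 CPM, with 4 of 8 genes at 0 in members. The part of these cells in the results was not tested.

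Against the day 1 cells without the 3 genes, members had 276 genes higher (9.87%) and 232 lower (8.30%) by 2-fold or more, of 2796 that reached 50 CPM in a group. The rule selected cells within this same library, so these ratios are a description. Among genes that reached 10 CPM, the filter used for gene lists, 15.3% were higher and 11.5% lower, and the median log2 ratio was 0.11. Against the steady-state members, 602 of 2848 genes were higher (21.1%) and 302 lower (10.6%) by the same fold. At 10 CPM these shares were 22.0% and 14.9%, and the median log2 ratio was 0.22. All list counts below are to be read beside the shares at 10 CPM of the same comparison. Scaling by the median of ratios, which shifted the steady-state comparison by 0.25 on the log2 scale, gave 386 higher and 409 lower, so that 48.6% of the called genes were higher in place of 66.6%. All changes against steady state are therefore to be read beside that shift.

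A first set of genes was more than 6-fold higher in members than in the other day 1 cells and less than 2-fold below its steady-state level. Gas6, a bridging ligand for the uptake of dying cells, had 336 CPM in members, 26.0 CPM in the day 1 cells without the 3 genes and 493 CPM in steady-state members. That was 12.95-fold above the former (95% interval 10.4 to 16.1) and 1.47-fold below the latter (1.23 to 1.75). Cd163, the haemoglobin scavenger receptor, had 204, 32.1 and 326 CPM in the same order. Igfbp4, which binds insulin-like growth factors, had 274, 29.6 and 371 CPM. Nfkbiz, a nuclear regulator of NF-kB target genes, had 527, 52.9 and 555 CPM, so that members and steady state differed by 1.05-fold (0.91 to 1.22).

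Rcn3, Slamf9 and Stmn1 were also among the 12 genes furthest above the day 1 cells without the 3 genes. Rcn3 had 111 CPM in members against 7.89 CPM, Slamf9, a surface receptor of the SLAM family, 135 CPM against 14.2 CPM, and Stmn1, a tubulin-binding protein, 189 CPM against 18.1 CPM. Their steady-state levels were 142, 230.0 and 185 CPM. Timd4, a receptor for dying cells found on many resident macrophages, had 94.3 CPM in members, 0.574 CPM in the day 1 cells without the 3 genes and 130 CPM at steady state. Its UMIs were in 13 members, and 24 of 44 were in 1 cell.

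In a second set members had the highest level of the 3 groups. Ccl12 had 3802 CPM in members, 487 CPM in the day 1 cells without the 3 genes and 1933 CPM in steady-state members, which is 7.81-fold (7.37 to 8.27) and 1.97-fold (1.85 to 2.09). Mrc1, the mannose receptor, had 955, 224 and 347 CPM, 4.26-fold (3.82 to 4.73) and 2.75-fold (2.42 to 3.13). At 2000 UMIs a cell, Mrc1 had a UMI in 62.5% of members, 26.0% of the day 1 cells without the 3 genes and 38.8% of steady-state members. Ccl12 had one in 77.7%, 31.3% and 52.6%. Both markers thus stood above the steady-state level, also under the median of ratios scaling shift of 0.25.

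Npl, an enzyme of sialic acid breakdown, had 330 CPM in members, 18.9 CPM in the day 1 cells without the 3 genes and 87.7 CPM at steady state. Ch25h, which makes 25-hydroxycholesterol, had 105, 2.44 and 33.0 CPM, 43.0-fold (24.4 to 79.7) and 3.19-fold (2.10 to 4.82) higher in members. Mt2, a metallothionein, had 452, 44.9 and 148 CPM. The neutrophil-attracting chemokine Cxcl1 had 371, 40.9 and 190 CPM. Hmox1, which degrades heme, had 1617, 962 and 334 CPM, 4.85-fold above steady state (4.33 to 5.44). Its log2 ratio to cells with a sum of 0 was 0.75, but -0.57 with 5 or more UMIs in the rule and -0.16 without Cd81 in the rule.

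**Figure D2:**
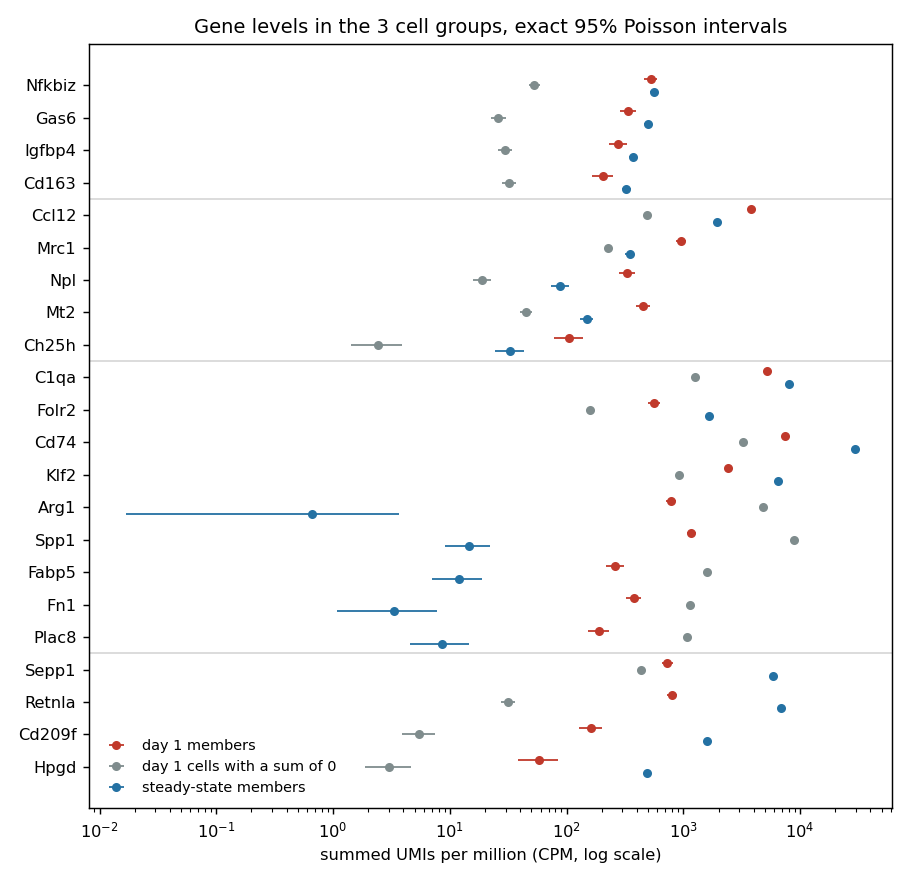
CPM (log x axis) of 22 genes (y axis) in day 1 members (red), day 1 cells without the 3 rule genes (grey) and steady-state members (blue), with exact 95% Poisson intervals that cover counting error only. From top to bottom the blocks hold genes less than 2-fold below steady state and over 6-fold above the grey group (Gas6 336 against 493 CPM), above both groups (Ccl12 3802 CPM), between them (Arg1 782 CPM) and far below steady state (Retnla 799 against 6846 CPM).

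The C1q genes of the complement system lay between the other groups. C1qa, which encodes a chain of the C1q recognition molecule, had 5240 CPM in members, 1260.2 CPM in the day 1 cells without the 3 genes and 8011 CPM at steady state. It was 4.16-fold (3.97 to 4.35) above the former and 1.53-fold (1.46 to 1.60) below the latter. C1qc had 4304, 992 and 7152 CPM and C4b 70.7, 9.47 and 103 CPM. Of the 11 complement genes measured against the day 1 cells without the 3 genes, 5 were higher by 2-fold or more and 1 lower, with a median log2 ratio of 0.61. Against steady state 2 of 12 were higher and 2 lower, with a median of -0.58, counts near the shares over all genes (22.0% and 14.9%). C3ar1, the receptor of the fragment C3a, was below both groups, with 135 CPM in members, 248 CPM in the other day 1 cells and 352 CPM at steady state.

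The core resident list, genes that mark nerve and other tissue macrophages, held 12 of 23 measured genes at least 2-fold higher than in the day 1 cells without the 3 genes and 3 lower, with a median log2 ratio of 1.05. Against steady state, 1 of 23 was higher and 6 lower, with a median of -0.46, beside 22.0% higher and 14.9% lower over all genes. Folr2, a folate receptor, had 563, 159 and 1656 CPM in members, the day 1 cells without the 3 genes and steady-state members. Sepp1, which encodes the selenium carrier selenoprotein P, had 730.5, 437 and 5861 CPM, 8.02-fold below steady state (7.20 to 8.97). Ccl24, an eosinophil-attracting chemokine, had 219 CPM in members and was lower than in both groups (674 and 731 CPM).

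Epineurial markers were carried by few members. Retnla, a secreted protein of alternatively activated macrophages, had 799 CPM in members, 31.6 CPM in the day 1 cells without the 3 genes and 6846 CPM at steady state, and its UMIs were in 18 members. At 2000 UMIs a cell, Retnla had a UMI in 6.25% of members, 1.21% of the day 1 cells without the 3 genes and 55.1% of steady-state members. Cd209f, a C-type lectin, had 161, 5.45 and 1597 CPM, in 13 members. Cd209d and the ficolin gene Fcna, also lectin-type genes, had 116 and 163 CPM in members and were 2.45-fold (1.84 to 3.31) and 2.54-fold (2.0 to 3.27) below steady state.

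Of 15 epineurial genes measured against the day 1 cells without the 3 genes, 10 were higher by 2-fold or more and none lower, with a median log2 ratio of 3.59. Their summed level went the other way, 9845 CPM in members and 15197 CPM in the day 1 cells without the 3 genes. The list holds the chemokine genes Ccl6 (4998 and 9916 CPM) and Ccl9 (2035 and 4013 CPM), which made up most of that sum. Against steady state, 11 of 17 epineurial genes were at least 2-fold lower in members and 1 higher, with a median of -1.35.

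Genes furthest below steady state included the endoneurial markers Gpr34, Lilra5 and Hpgd. Gpr34, a lysophosphatidylserine receptor, had 10.7 CPM in members (4 cells) and 139 CPM at steady state. Lilra5, an activating immunoglobulin-like receptor, had 12.9 and 150 CPM. Hpgd, which inactivates prostaglandins, had 57.8 and 492 CPM, 8.50-fold lower (5.80 to 12.99). Pla2g2d (10.7 and 138 CPM), Cd209b (in 4 members) and Cd209g (60.0 and 672 CPM), which are on the epineurial list, were also among them. So were Sult1a1 (6.43 and 148 CPM), Fam46a (21.4 and 175 CPM) and Ypel3 (51.4 and 365 CPM), which are on no list. Pla2g2d was a leading gene of cluster 4, described below, with Gpr34, Lilra5 and Hpgd, and not of the epineurial macrophage-like cluster 6. Of 11 endoneurial genes measured against steady state, 6 were lower and none higher, with a median log2 ratio of -1.56. Against the day 1 cells without the 3 genes, 5 of 10 were higher and 1 lower, with a median of 0.71, which was -0.25 with 2 or more UMIs in the rule and -0.38 without the top cell of each gene.

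Injury genes were far above steady state and far below the other day 1 cells. Arg1 had 782 CPM in members, 4809 CPM in the day 1 cells without the 3 genes and 0.659 CPM, a single UMI, at steady state. Members were 6.15-fold below the other day 1 cells (5.55 to 6.84) and 1186-fold above steady state, with an interval of 212 to 46984. Spp1, which encodes osteopontin, had 1170 CPM in members, 8792 CPM in the day 1 cells without the 3 genes and 14.5 CPM at steady state. These levels pool unlike members, which are divided by cluster below. The 87 members of cluster 7 had 385 CPM of Arg1 and 533 CPM of Spp1. The 18 members in clusters made mostly of steady-state cells had 184 and 368 CPM. The other 37 members had higher levels than either, given below. Fn1, fibronectin, had 375, 1136 and 3.30 CPM, and Thbs1, thrombospondin 1, had 219 and 950.3 CPM at day 1 and no UMI at steady state, at least 111-fold higher in members against a floor of 3 UMIs over the group.

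Of 23 wound repair and injury genes measured, 16 were at least 2-fold lower and 5 higher in members than in the day 1 cells without the 3 genes, with a median log2 ratio of -1.55. Against steady state 14 of 21 were higher and 2 lower, with a median of 2.37. Retnla and Mrc1 belong to this list as well as to the macrophage lists. Of that list Slpi, a protease inhibitor, was 5.84-fold lower in members than in the day 1 cells without the 3 genes, with 61.8% of its UMIs in 1 cell. Outside it, Tgm2, a transglutaminase, had 23.6 CPM in members and 141 CPM in those cells, and Rgcc, a cell cycle regulator, was 5.62-fold lower.

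RNA released by other cells can add such UMIs to a droplet. In 15 day 1 cells chosen by the dendritic cell genes Ccr7, Ccl17, Ccl22 and Flt3 (median 2680 UMIs), thinned to 2000 UMIs, Arg1 had a UMI in 3 of 11 cells (27.3%) and Spp1 in 6 of 11 (54.5%). These cells overlap the other groups. Leaving them out takes the members from 142 to 141 and the day 1 cells without the 3 genes from 2485 to 2473. In members the shares were 42.0% (47 of 112) for Arg1 and 60.7% (68 of 112) for Spp1, and in the day 1 cells without the 3 genes 84.7% and 88.3%. Without thinning, Arg1 had a UMI in 53.3%, 53.5% and 87.1% of the same groups. In that order Arg1 had 780, 782 and 4809 CPM, and Spp1 527, 1170 and 8792 CPM. In the 87 members of cluster 7, described below, Arg1 had 385 CPM and Spp1 533 CPM. The source of these UMIs in members was not tested, and the shares are not read as shares of cells that express these genes. Per 100 UMIs of Spp1, members had 66.8 of Arg1, 18.7 of Thbs1, 32.1 of Fn1 and 0.183 of Gpnmb, the last from 1 UMI. The day 1 cells without the 3 genes had 54.7, 10.8, 12.9 and 1.67 in that order. The 15 cells with dendritic genes had 148, 32.0, 44.0 and 8.0, from 37, 8, 11 and 2 UMIs.

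Monocyte genes were lower in members than in the other day 1 cells. Of 18 measured, 14 were at least 2-fold lower and none higher, with a median log2 ratio of -1.60. Plac8 had 189 CPM in members, 1079.8 CPM in the day 1 cells without the 3 genes and 8.57 CPM at steady state. Gsr, glutathione reductase, was 5.37-fold lower in members than in those cells. Hp, haptoglobin, had 42.8 CPM in members and 329 CPM in those cells, and Ms4a4c, a membrane-spanning protein, 60.0 and 375 CPM. Vcan, versican, had no UMI in members and 70.3 CPM in those cells, at least 10.9-fold lower. Chil3 had 167 and 757 CPM, and none of its UMIs were at steady state. In members 46.2% of its UMIs were in 1 cell. The 37 members outside clusters 4, 6 and 7, described below, had more Chil3 than those in cluster 7. Against steady state, 7 of 17 monocyte genes were higher and 2 lower, with a median of 0.86. The summed level of the list went the other way, 14269 CPM in members and 25163 CPM at steady state. Lyz2, lysozyme, made up most of it, with 8796 and 20850.5 CPM.

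Of 20 glycolysis and hypoxia genes, members had 14 lower by 2-fold or more and none higher than in the day 1 cells without the 3 genes (median log2 ratio -1.22), and 11 of 19 higher and none lower than at steady state (median 1.12). Mif, a cytokine with hypoxia-responsive expression, had 501, 1003.8 and 76.5 CPM in members, the day 1 cells without the 3 genes and steady-state members. Hilpda, a lipid droplet protein that is on no list, had 137, 598 and 9.23 CPM. Hif1a, the oxygen-sensitive transcription factor, had 77.1, 220.5 and 13.2 CPM. The C-type lectin receptors Clec4d (129, 423 and 1.98 CPM) and Clec4n (278, 389 and 33.6 CPM), of the scavenger list, had the same order. Eea1, an early endosome protein, had 135, 56.2 and 21.8 CPM and was highest in members.

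Lipid handling and lysosome genes were mixed: 9 of 24 were lower by 2-fold or more and 2 higher than in the day 1 cells without the 3 genes (median log2 ratio -0.59). The lipid carrier gene Fabp5 had 261 CPM in members, 1594 CPM in those cells and 11.9 CPM at steady state. Gpnmb, a glycoprotein of lipid-laden macrophages, had 1 UMI in members (2.14 CPM) and 146 CPM in those cells, 68.4-fold lower with an interval of 12.2 to 2703. Apoe, the lipid transport protein, had 8558 CPM in members, 11027 CPM in those cells and 41160 CPM at steady state, 4.81-fold lower than at steady state (4.66 to 4.97). Against steady state 6 of 21 were higher and 2 lower, with a median of 0.18, beside 22.0% and 14.9% over all genes.

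Inflammatory cytokine and chemokine genes had 10 of 19 members of the list at least 2-fold higher and 4 lower than in the day 1 cells without the 3 genes, with a median log2 ratio of 1.16. Against steady state 6 of 19 were higher and none lower, with a median of 0.70, beside 22.0% higher and 14.9% lower over all genes. Ccl7, a monocyte-attracting chemokine, had 8601 CPM in members, 3840 CPM in those cells and 5311 CPM at steady state. Ppbp, a platelet-type chemokine, had 62.1, 594 and 21.8 CPM, and Cxcl3, a neutrophil attractant, 92.1, 428 and 0.659 CPM. Osm, oncostatin M, had 124, 249 and 25.05 CPM. Interferon response genes had 6 of 15 lower and none higher than in the day 1 cells without the 3 genes (median -0.92). Irf7, a regulator of interferon genes, had 49.3, 239 and 58.7 CPM.

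Immediate early and heat shock genes, which respond within minutes to stimulation and to tissue dissociation, had 7 of 22 at least 2-fold higher and none lower than in the day 1 cells without the 3 genes (median log2 ratio 0.62). Against steady state, 15 of 22 were lower and 1 higher, with a median of -1.40. Egr1 had 566, 80.9 and 1094 CPM in members, the day 1 cells without the 3 genes and steady-state members. Klf2, a transcription factor of quiescent cells, had 2421, 919 and 6418 CPM. The part of cell handling in these values was not tested.

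Cell cycle genes had 14 of 17 at least 2-fold higher and 1 lower than in the day 1 cells without the 3 genes, with a median log2 ratio of 2.60. Mcm3, a replication factor, had 68.5, 11.3 and 20.4 CPM in the 3 groups, and Pcna, the sliding clamp, 120.0, 49.6 and 54.7 CPM. Tubb5, a tubulin, had 538, 183 and 331 CPM. Only 6 members had 2 or more UMIs over Birc5, Ube2c, Top2a and Mki67, and without such cells the list median was 1.09. Against steady state 6 of 18 were higher and 1 lower, with a median of 0.54, beside 22.0% higher and 14.9% lower over all genes.

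The remaining lists differed less. Scavenger receptors had 6 of 16 higher and 5 lower than in the day 1 cells without the 3 genes (median log2 ratio 0.28), and their median against steady state was -0.10 while the mean was 0.80. Growth factors and their receptors had 5 of 13 higher and 2 lower (0.50), with a median of -0.35 and a mean of 0.01 against steady state. Macrophage transcription factors had medians of -0.36 and -0.40 in the 2 comparisons, tetraspanins 0.58 and -0.22, iron and heme genes 0.56 and -0.67, and chemokines of resident macrophages 0.51 and 0.87. Against the day 1 cells without the 3 genes, some of these medians changed sign with the rule. Without Cd81 in it they were -0.59 for scavenger receptors, -0.44 for resident chemokines and -0.08 for iron and heme genes, which were at -0.57 with 5 or more UMIs. Resident chemokines were at -0.50 with fibroblast-marker cells left out. The iron and heme list also holds Hpgd, which inactivates prostaglandins. Among its genes that reached 50 CPM in a group, Hpgd had the largest ratio in both comparisons. Mef2c, a transcription factor of tissue macrophages, had 141, 39.0 and 295 CPM in members, the day 1 cells without the 3 genes and steady-state members.

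**Figure D3:**
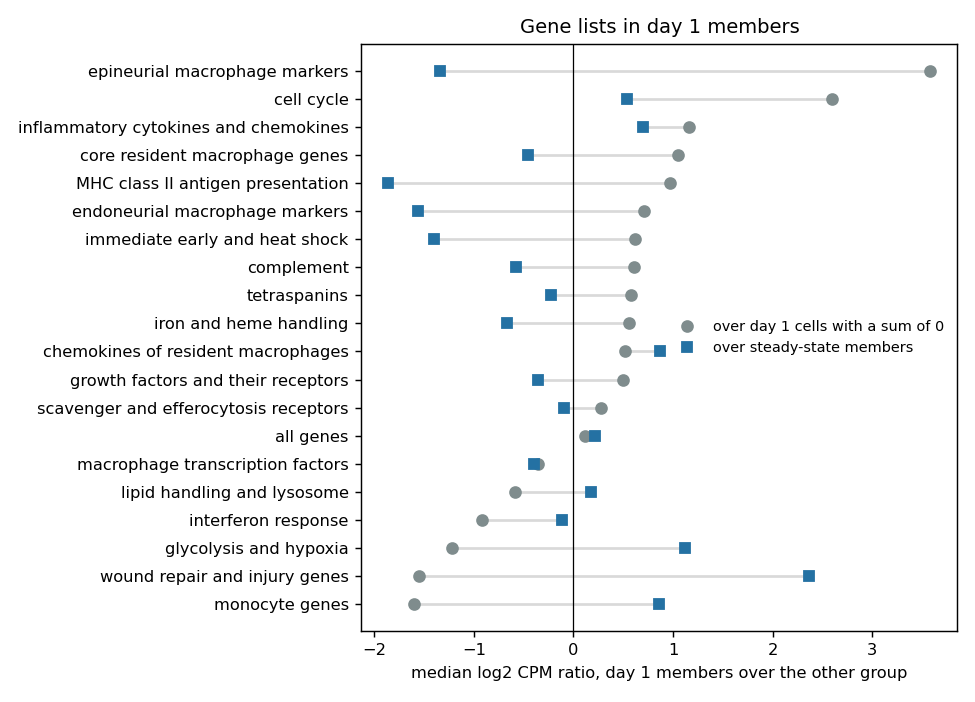
Median log2 ratio (x axis) over the measured genes of each list drawn (y axis), for day 1 members over day 1 cells without the 3 rule genes (grey circles) and over steady-state members (blue squares), with the row "all genes" at 0.11 and 0.22. Wound repair genes lie at -1.55 and 2.37, and MHC class II genes at 0.97 and -1.86. Not drawn are the fibroblast list (5.10 and 3.57), the dendritic cell list (0.64 and -1.11) and the neutrophil list (-1.62 over the day 1 cells). Lists with fewer than 3 measured genes are not drawn either.

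Genes of antigen presentation divided the members. MHC class II molecules carry peptides to CD4 T cells: H2-Aa and H2-Ab1 encode the chains of I-A, H2-Eb1 a chain of I-E, and Cd74 the invariant chain that guides their assembly. Over all members, Cd74 had 7431 CPM, against 3258 CPM in the day 1 cells without the 3 genes and 29750.2 CPM at steady state. H2-Aa had 2802, 1341 and 10906 CPM. Of 10 class II genes, members had 5 at 2-fold or more above those day 1 cells and 1 below (median log2 ratio 0.97), and against steady state 7 of 9 were lower and none higher (median -1.86).

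The promoters of 3 of these genes are shown because class II genes varied together among the members and share a known promoter element. The stretches run from 100 to 21 bases upstream of the start in RefSeq (GRCm38.p6), 5′ to 3′ on the strand of the gene, with the 6 letters GATTGG in capitals. These letters are the core of the Y box, which the factor NF-Y binds. H2-Aa is at chr17:34287844-34287923 (minus strand), H2-Eb1 at chr17:34305767-34305846 (plus) and H2-DMb1, which encodes a chain of the peptide-loading molecule, at chr17:34153091-34153170 (plus).
H2-Aa: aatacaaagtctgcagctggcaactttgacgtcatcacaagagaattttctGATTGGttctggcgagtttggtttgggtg
H2-Eb1: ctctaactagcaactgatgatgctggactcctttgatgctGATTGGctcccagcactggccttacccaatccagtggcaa
H2-DMb1: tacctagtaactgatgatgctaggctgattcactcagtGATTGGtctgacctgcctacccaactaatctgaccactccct
The H2-Eb1 stretch also holds the reverse complement, CCAATC, which is left in lower case. Of 11 genes on the class II list 7 were matched here, and 6 of those held GATTGG or its reverse complement between 250 bases before and 50 after a start. Of all 32851 promoters searched, 16.1% held it. That share counts promoters, while a gene was counted when any of its starts held the letters, so the units are unlike. H2-DMa had a start with the letters and a start without them. A match of letters is a description of the sequence only.

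The 60 members with Mgl2 and without Lyve1 had 14912 CPM of Cd74, and the 24 members with Lyve1 and without Mgl2 had 578 CPM. That is a 25.8-fold difference (19.5 to 35.0). The 40 members with both genes had 3840 CPM and the 18 with neither, which met the rule by Cd81 alone, had 2166 CPM. H2-Aa had 5965 CPM in the members with Mgl2 only and 153 CPM in those with Lyve1 only, 38.9-fold (22.6 to 73.3). H2-Eb1 was 59.6-fold higher (27.2 to 163) and H2-Ab1 50.2-fold (28.6 to 97.3). H2-DMb1, whose reads may be shared with its near copy H2-DMb2, was 18.2-fold higher (6.08 to 89.5), with 3 UMIs in the lower group.

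The split was seen cell by cell. Per 1000 UMIs, the 3 genes H2-Aa, H2-Ab1 and H2-Eb1 together had a median of 6.50 in the members with Mgl2 and without Lyve1 (quartiles 1.50 and 18.5, highest 89.8). In the members with Lyve1 and without Mgl2 the median was 0 and the highest cell had 2.10. Median depths were 2959 and 3056 UMIs. At 2000 UMIs a cell, 36 of 48 and 0 of 17 cells had 5 or more of these UMIs.

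At steady state the split was in the same direction, with smaller ratios of the summed levels. There the 408 members with Mgl2 and without Lyve1 had 33157 CPM of Cd74 and the 17 with Lyve1 and without Mgl2 had 16514 CPM, a 2.01-fold difference (1.85 to 2.18). H2-Aa differed by 2.56-fold (2.20 to 3.0). Cell by cell, H2-Aa, H2-Ab1 and H2-Eb1 together had a median of 32.5 per 1000 UMIs with Mgl2 only (quartiles 17.6 and 49.4) and 2.50 with Lyve1 only (quartiles 0.796 and 15.3, highest 49.0). At 2000 UMIs a cell, 271 of 290 and 6 of 9 cells had 5 or more of these UMIs. By summed CPM, all 4 steady-state subsets had more Cd74 than any day 1 subset. For the closest subsets the counting intervals overlapped. They were 15209 to 17901 CPM in the 17 steady-state cells with Lyve1 only and 14360 to 15479 CPM in the day 1 members with Mgl2 only. With 1 library per time point the difference between the splits has no replicate check.

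**Figure D4:**
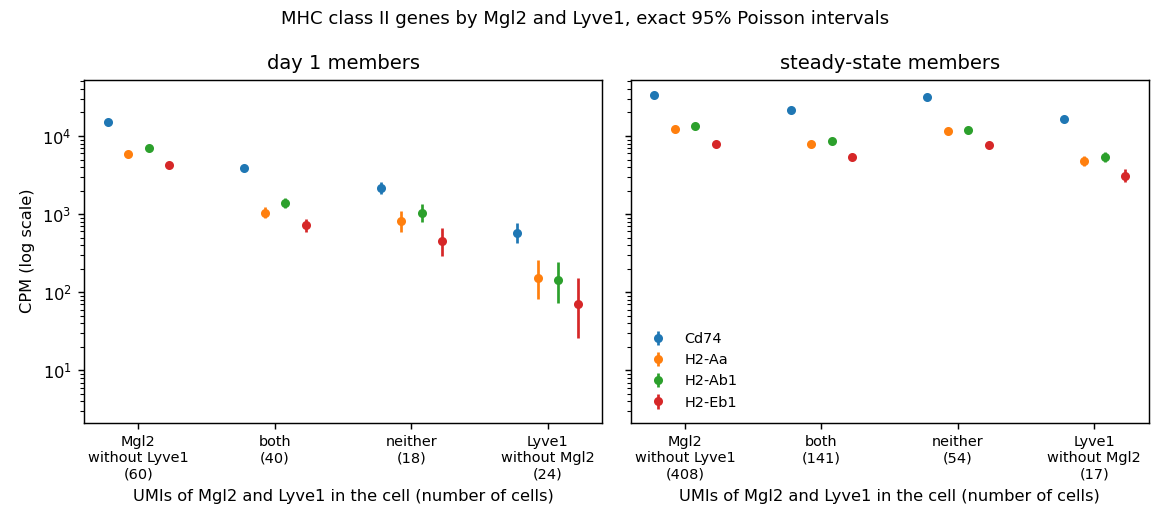
CPM (log y axis) of Cd74, H2-Aa, H2-Ab1 and H2-Eb1 in day 1 members (left) and steady-state members (right), divided by whether the cell had UMIs of Mgl2 and Lyve1 (x axis, number of cells in brackets), with exact 95% Poisson intervals. Cd74 runs from 14912 to 578 CPM at day 1 and from 33157 to 16514 CPM at steady state.

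Other genes divided the day 1 members in both directions. Folr2 had 260 CPM with Mgl2 only and 991 CPM with Lyve1 only, 3.81-fold lower in the former (2.64 to 5.56), and Cd163 was 3.84-fold lower (2.19 to 6.91). Pmp22, a membrane protein gene of Schwann cells that macrophages also carried here, was 4.36-fold lower (2.16 to 9.24). Ccl12 was 3.76-fold higher with Mgl2 only (3.10 to 4.61). Mrc1 differed by 1.00-fold (0.765 to 1.30) and C1qa by 1.10-fold (0.976 to 1.23).

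Cd209a, Napsa and Ccl17, of the dendritic cell list, lay mostly in the members with Mgl2 and without Lyve1. Of the 18 genes on that list, 10 had no UMI in members, among them Ccr7, Ccl22, Flt3 and Zbtb46. Napsa was also a leading gene of cluster 5, described below. Without its top cell, its log2 ratio to the day 1 cells without the 3 genes was -1.14. Cd209a had 195 CPM there (10 cells) and 11.8 CPM with Lyve1 only (1 cell). Napsa had 200.3 CPM in 6 cells and 23.6 CPM in 1 cell. All 25 UMIs of Ccl17 in members were in 1 cell. When Mgl2 was left out of the rule, the log2 ratio to cells with a sum of 0 became -0.21 for H2-Aa, -0.07 for H2-Ab1, -0.01 for H2-Eb1 and -0.19 for Cd209a, and the class II list median became -0.21. Without the top cell of each gene that median was 0.42. The part of dendritic cells in the class II values was not tested.

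The members were also placed by their whole profile, with the 3 rule genes left out, in a graph of 3521 cells of which 20.7% were steady-state cells. Among the 30 nearest neighbours of a cell, steady-state cells made up a median of 3.33% around members (quartiles 0 and 25.8, mean 17.5%). The median was 0 around the day 1 cells without the 3 genes, of which 97.5% had no steady-state neighbour. Of the 142 members, 63 (44.4%) had no steady-state neighbour, and 19 had more than 50%. The median around members became 0 with 15 neighbours or with all 3 libraries in 1 graph.

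Of 8 clusters of the steady-state and day 1 cells, 1 held 87 members (61.3%, 52.7 to 69.3). This cluster, number 7, had 134 day 1 and 17 steady-state cells and is given no cell type name. Its 10 leading genes were Stmn1, Birc5, Npl, Ch25h, Cxcl1, Mt2, Ccl12, Spc24, Tsen15 and Dut. Npl, Ch25h, Cxcl1, Mt2 and Ccl12 are genes of the second set above. All 6 members with 2 or more UMIs over Birc5, Ube2c, Top2a and Mki67 were in this cluster. Only 19 of the 2485 day 1 cells without the 3 genes were in it, and 16 of 620 steady-state members. A further 18 members (12.7%) were in the 2 clusters made mostly of steady-state cells: 6 in cluster 4, and 12 in cluster 6, which is epineurial macrophage-like by Retnla, Cd209b, Cd209d, Cd209f, Cd209g and Fcna among its leading genes. The other 37 were in clusters 1, 2, 3 and 5, with most of the day 1 cells without the 3 genes. At a clustering resolution of 0.5 the largest holding was 44.4% and 52.8% of members were in mostly steady-state clusters. The cluster that held most of them then had 521 steady-state and 93 day 1 cells, so the place of the members apart from steady state depends on the resolution.

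**Figure D5:**
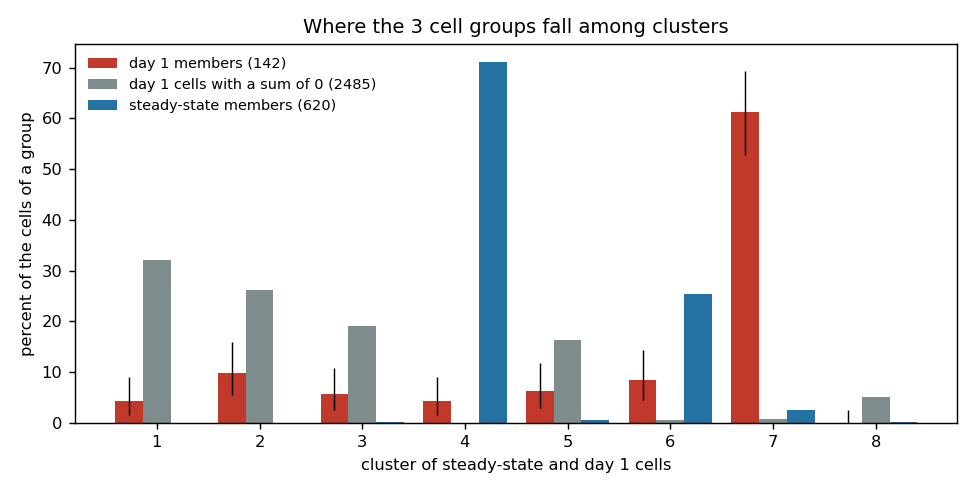
Percent of each cell group (y axis) in each of 8 clusters (x axis) for day 1 members (red, with exact 95% intervals), day 1 cells without the 3 rule genes (grey) and steady-state members (blue). Cluster 7 holds 61.3% of the day 1 members, and clusters 4 and 6 hold 71.1% and 25.5% of the steady-state members.

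The members in these clusters had unlike levels, which the clustering itself used. The 12 in cluster 6 had 16912 CPM of Retnla and 3183 CPM of Cd209f, and the 87 in cluster 7 had 33.5 and 3.35 CPM. Ccl12 had 5115 CPM in the members of cluster 7 and 1288 CPM in the 37 members outside clusters 4, 6 and 7. In those 37 cells Arg1 had 1796 CPM, Spp1 2760 CPM and Chil3 523 CPM, against 385, 533 and 23.5 CPM in cluster 7. Gas6 had 140 CPM in the 37 cells and 379 CPM in cluster 7. By the injury and monocyte genes they carried, these 37 cells went against the name resident-like.

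At day 5, the cells that met the rule had 582 CPM of Ccl12, 313 CPM of Mrc1 and 77.5 CPM of Npl, lower than the 3802, 955 and 330 CPM of the day 1 members. Their C1qa was 6506 CPM, Cd74 21001 CPM and Retnla 4678 CPM, each between the day 1 and the steady-state members.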

How the data were processed

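The authors deposited, for each of the 3 libraries, whole-number UMI counts per gene and cell barcode, not normalized. Cell Ranger 2.0.2 and the build mm10 are named per the submitters' processing notes, and the 10x chemistry is version 1 per the labels. A deposited table that pools the libraries was not used. Cells and members were chosen by the rule given in the report. UMIs were summed over the cells of a group and scaled to CPM (Python 3.11.15, numpy 2.4.6). Ratios have exact conditional binomial intervals at 95%. A count of 0 was set to a floor of 3 UMIs, and no ratio is given where that floor lies above the other group. Ratios were tested on simulated counts. Neighbours and clusters used 30 principal components of 1997 variable genes (scanpy 1.11.5). Genes were named by a rule: Ccl12, Mrc1, the 12 largest ratios per direction in a comparison (minimum 100 CPM, and UMIs in 10% of the cells of the higher group) and up to 4 per list (minimum 50 CPM). Other genes were named after their values were seen. The members and the 26 gene lists were chosen with earlier results of these data known. Doublets were not removed. Alternatives changed the rule, depth, scaling, filters and graph.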

Additional observations from a re-analysis of the deposited data

How the results depend on the processing

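The share of day 1 cells that met the rule was 6.77% with 2 or more UMIs, 3.44% with 5 or more, 3.47% without Mgl2 in the rule, 3.19% without Cd81 and 6.58% among cells with 2000 to 6000 UMIs. The counts of genes higher and lower than in cells with a sum of 0 were 150 and 127 at 100 CPM or more and 640 and 486 at 20 CPM or more. Against steady state they were 354 and 172, and 1098 and 686, and the count higher was 386 under the median of ratios. The median share of steady-state neighbours was 0 with 15 neighbours and 0 with all 3 libraries in 1 graph. At resolution 0.5, 52.8% of members were in mostly steady-state clusters and 44.4% in the largest holding. Without Mgl2 in the rule, log2 ratios to cells with a sum of 0 were -0.0117 (H2-Eb1), -0.0663 (H2-Ab1), -0.21 (H2-Aa) and -0.19 (Cd209a). Without Cd81 they were -1.57 for the fibroblast list and -1.74 for Dcn, and against steady state -0.32 for that list, -2.24 for Dcn and -0.32 for Gsn. With fibroblast-marker cells left out, chosen after seeing the data, the last 3 were -0.26, -2.24 and -0.26, and Dcn was -2.61 without its top cell. Ccl17 against steady state was 4.39 among cells with 2000 to 6000 UMIs and 4.10 without doublet calls and the deepest cells, where the dendritic list was 1.62. The causes were not tested. Leaving out the top cell of each gene, also chosen after seeing the data, gave 205 higher and 253 lower than in cells with a sum of 0, a share of 44.8% higher against 54.3%. Of 4900 values of single genes under the alternatives, 4343 lay within the counting interval of the reported value. The members' 466816 UMIs limit genes under about 6.43 CPM, the level of 3 UMIs. No paired analysis was possible because each time point has 1 library.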

Other observations

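Some genes had most of their UMIs of the day 1 members in a single cell. Dcn, a fibroblast proteoglycan, had 48 of 49 UMIs in 1 cell, Gsn, gelsolin, 99 of 138, and the interleukin gene Il1a 32 of 54. Genes of general function showed it too: Mbd2, a methyl-DNA binding protein, had 32 of 44 UMIs in 1 cell, Rnf4, a ubiquitin ligase, 42 of 64, and Seh1l, a nuclear pore protein, 31 of 49. These genes were chosen after their values were seen.

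In the day 1 library, 12 cells without a UMI of Mgl2, Lyve1 or Cd81 lay in the epineurial macrophage-like cluster. They had 7394 CPM of Retnla, 2270 CPM of Cd209f and 732 CPM of Gas6, with a median of 1023 UMIs. Their number equals that of the members in the cluster, which had a median of 1503 UMIs.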
